A study of Homo sapiens with 18 samples.

Results

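Repair of DNA interstrand crosslinks and homologous recombination were followed through 44 genes in human lung cells exposed to wood smoke: the Fanconi anaemia genes, the recombination mediators and resection factors, the XRCC and RAD paralogs, the structure-specific nucleases, the dissolution proteins and the checkpoint kinases ATM and ATR. The 44 genes were a named list, chosen because these pathways repair crosslinks made by aldehydes. All 44 were matched by symbol among 62649 gene identifiers, and all 44 passed the filter on low counts in every fit, the smallest count of any of them in any library being 50 reads.

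A DNA interstrand crosslink ties both strands of the helix together and blocks replication and transcription. In the Fanconi anaemia pathway a core complex of FANC and FAAP proteins is anchored at the lesion by FANCM, and its ubiquitin ligase subunit FANCL, working with the conjugating enzyme UBE2T, marks FANCD2 and FANCI. The marked pair brings in nucleases that unhook the crosslink, and the resulting break is repaired by homologous recombination, in which ends are resected, BRCA1, PALB2 and BRCA2 act as mediators, and BLM with its partners separates the joined molecules. Endogenous and inhaled aldehydes are known sources of such lesions, and inherited loss of these genes causes Fanconi anaemia or cancer predisposition.

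The libraries came from 2 established lines. A549 is a human lung adenocarcinoma line described by the submitters as alveolar, and BEAS-2B is a bronchial epithelial line immortalised with a viral T antigen. Each line was exposed at the air-liquid interface for 4 h to complete wood smoke, to filtered wood smoke or to clean air, which makes 6 groups of 3 libraries. A549 cells were seeded at 400000 and BEAS-2B cells at 500000 per insert, and the lines were kept in different growth media before exposure. Humidity was 85% and the flow was 100 mL/min, and the labels give every sample as wild type. The labels do not tell whether libraries of a group are separate exposures or technical repeats, and the p-values below measure no more than the spread among them. Because 1 clean air group serves both smoke groups of a line, the comparisons with complete and with filtered smoke share their controls and are not independent.

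Gene counts per library ranged between 14438397 and 21432089 in A549 and between 28532235 and 55032499 in BEAS-2B. All 5 epithelial markers exceeded 1 CPM (the counts-per-million unit) in both lines, all 5 bronchial basal markers did so in BEAS-2B, and of 6 alveolar type 2 markers only ABCA3 did so in A549, where the surfactant genes were at or near 0. Leukocyte, endothelial and club cell markers stayed under 1 CPM in every group. Marker sums moved with exposure: the 5 epithelial markers summed to 10461 CPM with complete and 12326 CPM with filtered smoke, against 6746 CPM with clean air in A549, and to 6863 and 7176 CPM, against 3071 CPM with clean air in BEAS-2B. The 4 fibroblast markers, all detected in BEAS-2B, summed there to 326 CPM with complete and 366 CPM with filtered smoke, against 664 CPM with clean air. In A549, where 1 of the 4 was detected, they summed to 19.6 and 12 CPM, against 35.6 CPM with clean air. The 5 basal markers summed to 1529 CPM with complete and 1741 CPM with filtered smoke, against 752 CPM with clean air in BEAS-2B. In A549 they summed to 9.1 and 10.1 CPM, against 19.7 CPM with clean air. The share of reads outside annotated genes also moved with exposure: it was 2.83% to 5.62% with complete smoke and 2.24% to 4.46% with filtered smoke, against 5.68% to 6.71% with clean air in A549. In BEAS-2B it was 1.08% to 8.50% with complete smoke and 0.952% to 2.33% with filtered smoke, against 3.05% to 5.78% with clean air, and complete smoke replicate 3 held the highest value together with 31.7% of multiply mapped reads. That library and clean air replicate 1 stood apart from the others of their groups in BEAS-2B. The part of these differences in the results was not tested.

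Wood smoke split the module: some genes rose and more fell, with complete and with filtered smoke. Changes are log2 fold changes with standard errors from edgeR's quasi-likelihood test, and a gene was said to rise or fall when its p-value, adjusted over all genes tested by the Benjamini-Hochberg method, was under 0.05. In A549, 8 genes of the module rose and 10 fell with complete smoke, where 32.5% of all genes tested passed, 15.6% as rises and 16.9% as falls. With filtered smoke 10 rose and 14 fell in A549, where 46.7% of all genes passed, 23.1% as rises and 23.5% as falls. In BEAS-2B, 8 rose and 11 fell with complete smoke, beside 41% of all genes, 21.5% as rises and 19.5% as falls. With filtered smoke 10 rose and 16 fell there, beside 48.6% of all genes, 23.6% as rises and 24.9% as falls. These counts, 18 to 26 of 44 genes, were close to or somewhat above the share of all genes called in the same comparison, and nothing is read from them as particular to the module. The median log2 fold change of the 44 genes was -0.15 with complete and -0.17 with filtered smoke in A549, against 0.02 and 0.01 over all genes tested. In BEAS-2B the module's median was -0.48 with complete and -0.33 with filtered smoke, against -0.06 and -0.07 over all genes.

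Summed, and without scaling, the 44 genes held 1521 to 1622 CPM with complete smoke and 1494 to 1602 with filtered smoke, against 1660 to 1773 with clean air, in A549. In BEAS-2B they held 1279 to 1528 CPM with complete smoke and 1292 to 1409 with filtered smoke, against 1613 to 2337 with clean air. The exposed libraries lay below the clean air libraries in both lines. Such sums also depend on what other genes hold of a library. Scaled by library size alone, the median log2 fold change over all genes was below 0 in both lines too, as given below. Nothing is read from these sums as particular to the module. In bulk samples, fewer cells that transcribe a gene and less RNA per cell cannot be told apart.

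In A549, same-numbered libraries deviated together, so the exposures pair by number there. In BEAS-2B 8 of 9 such pairs correlated over 0.1, at a median r of 0.58, against -0.28 between different numbers. A pairing there is not excluded, and the BEAS-2B values ignore it. Values of single genes, and counts with a library left out, come from fits that ignore the number unless a block is named. With the number as a replicate block, 13 genes rose and 16 fell with complete smoke (54.6% of all genes passed, 27.3% as rises and 27.3% as falls), and 14 rose and 18 fell with filtered smoke (61.7% of all genes, 30.4% as rises and 31.3% as falls). Every A549 call made without the block was kept with it, and 11 genes were added with complete smoke and 8 with filtered smoke. The count with complete smoke in A549 fell to 2 without complete smoke replicate 2, to 3 without complete smoke replicate 1, to 4 without clean air replicate 1 or replicate 2 and to 5 without clean air replicate 3, and was 25 without complete smoke replicate 3. In BEAS-2B the complete smoke count fell to between 5 and 9 without clean air replicate 2 or 3 or complete smoke replicate 1 or 2, and was 29 without complete smoke replicate 3. The filtered smoke count in BEAS-2B fell to 8 without clean air replicate 2 or 3 and to 11 and 12 without filtered smoke replicates 1 and 2. In A549 it fell to 15 without clean air replicate 3 and to 14 without filtered smoke replicate 2. The share of all genes that passed with 1 library left out is not given. These counts therefore do not tell whether the module or all genes gained or lost calls. Without both BEAS-2B libraries that stood apart, 12 genes rose and 20 fell with complete smoke, where 63.5% of all genes passed, 31.8% as rises and 31.7% as falls. In the same fit 12 rose and 19 fell with filtered smoke, where 63.4% of all genes passed, 32.1% as rises and 31.3% as falls.

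The direction of the split depended on the scaling in BEAS-2B. Scaled by library size alone, without the trimmed mean of M-values (TMM), the median over all genes tested moved to -0.75 with complete and -0.74 with filtered smoke, and 18.3% of all calls in either comparison were rises, beside 52.5% and 48.7% under TMM. Under that scaling 2 genes of the module rose and 23 fell with complete smoke, and 4 rose and 28 fell with filtered smoke. Directions in BEAS-2B are therefore relative to the bulk of genes. In A549 the same change moved the median over all genes to -0.10 with complete and -0.15 with filtered smoke, rises then made up 34.7% and 37.9% of all calls beside 47.9% and 49.6%, and 5 genes of the module rose and 12 fell with complete smoke and 8 rose and 17 fell with filtered smoke. The share of all genes that passed under this scaling is not given for either line. The module's counts under it are therefore not read as particular to the module.

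**Figure D1:**
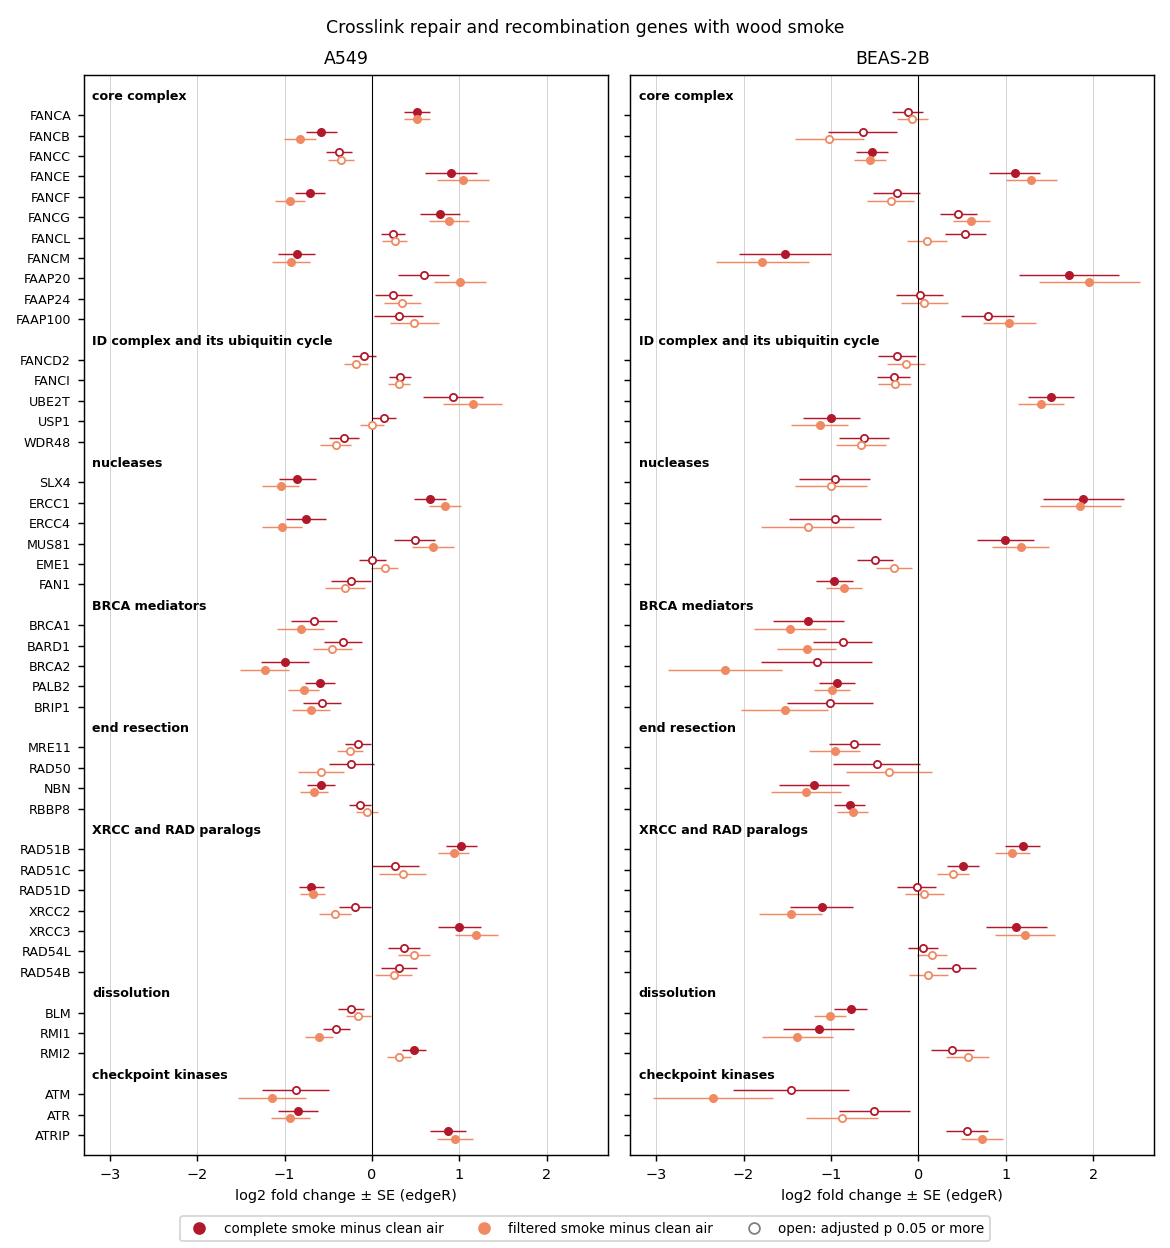
Log2 fold change with its standard error for each of the 44 genes (rows, grouped by role) with complete smoke (dark) and filtered smoke (light) against clean air, A549 on the left and BEAS-2B on the right, from TMM-scaled counts; filled points have an adjusted p under 0.05. FANCE, ERCC1, RAD51B and XRCC3 lie right of 0 with filled points in all 4 comparisons, and FANCM, PALB2 and NBN lie left of 0.

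Some genes moved the same way in every comparison. FANCE, ERCC1, RAD51B and XRCC3 rose in all 4 smoke comparisons (9.09% of 44 genes), and FANCM, PALB2 and NBN fell in all 4 (6.82%). Of the 13927 genes tested in both lines, 9.92% rose and 8.86% fell in all 4, so these shares were not above the background, and the comparisons within a line share their clean air libraries. No gene of the module rose in one smoke comparison and fell in another. Without the replicate block, FANCL, FAAP24, FANCD2, FANCI, WDR48, EME1, RAD50, RAD54L and RAD54B, 9 genes in all, passed in none of the 4 (20.5%, beside 31.7% of all genes). FANCI and WDR48 passed in A549 with the block. Under library size alone the BEAS-2B fold changes of the 4 rising genes stayed above 0, with log2 values of 0.40 to 1.2, but several calls were lost in edgeR's test. RAD51B (adjusted p = 0.145 with complete and 0.241 with filtered smoke) and XRCC3 (adjusted p = 0.133 with complete smoke) passed with neither smoke, and FANCE did not pass with complete smoke (adjusted p = 0.117).

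The promoters of the genes that moved in all 4 comparisons were read from RefSeq (GRCh38.p14), as the 250 bases before each annotated start. Windows were found for 40 of the 44 genes, and none was found for RMI2, NBN, FANCI and RAD54B. They are shown for 3 genes that rose and 2 that fell throughout, with CCAAT and the ETS string CCGGAAG in capitals on either strand, to set their base composition and boxes side by side.
FANCE, rose, plus strand, chr6:35452088-35452337: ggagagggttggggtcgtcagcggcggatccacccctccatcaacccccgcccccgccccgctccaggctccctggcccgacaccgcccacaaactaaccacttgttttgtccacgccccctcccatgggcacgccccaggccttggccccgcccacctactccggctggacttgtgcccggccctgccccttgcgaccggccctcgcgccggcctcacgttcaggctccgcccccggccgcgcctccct
XRCC3, rose, minus strand, chr14:103715452-103715701: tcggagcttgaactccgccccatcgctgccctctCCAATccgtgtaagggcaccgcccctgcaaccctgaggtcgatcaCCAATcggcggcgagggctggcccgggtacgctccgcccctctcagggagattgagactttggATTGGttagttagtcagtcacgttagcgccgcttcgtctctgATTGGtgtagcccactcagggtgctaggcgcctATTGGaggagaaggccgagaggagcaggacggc
RAD51B, rose, plus strand, chr14:67823291-67823540: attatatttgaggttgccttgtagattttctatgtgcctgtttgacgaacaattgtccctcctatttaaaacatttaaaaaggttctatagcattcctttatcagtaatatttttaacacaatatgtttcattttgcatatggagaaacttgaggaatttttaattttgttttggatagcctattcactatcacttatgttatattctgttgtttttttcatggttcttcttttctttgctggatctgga
FANCM, fell, plus strand, chr14:45135680-45135929: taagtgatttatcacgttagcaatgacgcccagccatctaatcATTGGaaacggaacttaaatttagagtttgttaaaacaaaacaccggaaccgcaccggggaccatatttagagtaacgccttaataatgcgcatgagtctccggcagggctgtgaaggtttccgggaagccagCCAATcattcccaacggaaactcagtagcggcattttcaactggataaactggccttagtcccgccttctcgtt
PALB2, fell, minus strand, chr16:23641311-23641560: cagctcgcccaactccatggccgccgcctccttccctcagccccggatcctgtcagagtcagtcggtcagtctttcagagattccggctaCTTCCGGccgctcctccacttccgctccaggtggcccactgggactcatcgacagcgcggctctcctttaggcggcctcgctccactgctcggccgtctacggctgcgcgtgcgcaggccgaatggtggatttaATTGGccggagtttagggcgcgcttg

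The window of XRCC3 held 5 CCAAT strings, that of FANCM held 2, that of PALB2 held 1 CCAAT and 1 ETS string, and those of FANCE and RAD51B held neither. Their GC content was 73.6% for FANCE, 62% for XRCC3, 29.6% for RAD51B, 46.4% for FANCM and 64.8% for PALB2. The RAD51B window precedes a RefSeq start that lies inside the annotated span of the gene, which begins at position 67819779. With or without RAD51B, window composition did not separate rising from falling genes in this set. The E2F strings TTTCCCGC, TTTGGCGC, TTTCGCGC and TTTGCCGC occurred in 3 of 40 genes (7.5%, beside 3.4% of all 27305 genes with a window), CCAAT in 18 (45%, beside 37%), CCGGAAG in 13 (32.5%, beside 10.2%) and the SP1 string GGGCGG in 27 (67.5%, beside 46.2%), all searched on both strands. The NRF1 string was in 7 (17.5%, beside 6.2%), of which 2 were among genes that rose and 5 among genes that fell. The median GC content of the windows was 64.4% for the module and 58% for all genes. CCGGAAG was in 0 of 12 genes that rose in any smoke comparison, in 9 of 21 that fell and in 4 of 7 that passed in none. The 9 were ATM, ATR, BLM, BRCA2, MRE11, PALB2, RAD51D, SLX4 and USP1. A string match describes the window and shows no binding.

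Among the core complex genes, which recognise the lesion and carry the ligase, FANCE, FANCG and FANCA rose in A549 and FANCM, FANCF and FANCB fell. FANCE, the subunit that contacts FANCD2, measured 7.51, 8.7 and 4.43 CPM with complete smoke and 9.35, 8.2 and 5.14 CPM with filtered smoke, against 3.82, 4.09 and 3.08 CPM with clean air in A549. All 6 exposed libraries were above all 3 clean air libraries, and the log2 fold changes were 0.91 ± 0.30 (SE, adjusted p = 0.0424) with complete smoke and 1.04 ± 0.30 (SE, adjusted p = 0.0186) with filtered smoke. In BEAS-2B, where the gene was expressed at a higher level, FANCE measured 44.1, 32.3 and 24.4 CPM with complete smoke and 51.4, 33.1 and 30.6 CPM with filtered smoke, against 19.4, 14.6 and 12.9 CPM with clean air. The groups again did not overlap, and the changes were 1.1 ± 0.29 (SE, adjusted p = 0.0177) and 1.29 ± 0.29 (SE, adjusted p = 0.00945). FANCA, a large scaffold subunit and the gene most often mutated in Fanconi anaemia, had 74.5, 61 and 58.9 CPM with complete smoke and 69.1, 66.4 and 59 CPM with filtered smoke, against 50.8, 43.8 and 41.9 CPM with clean air in A549. It rose with log2 changes of 0.51 ± 0.15 (SE, adjusted p = 0.0285) and 0.51 ± 0.15 (SE, adjusted p = 0.0197). The BEAS-2B libraries held 52.1, 44.4 and 53.1 CPM with complete and 61.1, 49.8 and 44.2 CPM with filtered smoke, against 55.3, 52.4 and 55.1 CPM with clean air, ranges that overlapped. FANCG, an adaptor subunit, measured 73.7, 71.2 and 50 CPM with complete and 78.9, 81.4 and 49 CPM with filtered smoke, against 43.1, 38.3 and 32 CPM with clean air in A549. It rose in A549 with log2 changes of 0.78 ± 0.23 (SE, adjusted p = 0.0286) with complete and 0.88 ± 0.23 (SE, adjusted p = 0.0123) with filtered smoke, and in BEAS-2B with a log2 change of 0.60 ± 0.21 (SE, adjusted p = 0.040) with filtered smoke, where the value was -0.08 under scaling by library size alone.

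FANCM, the translocase that anchors the complex on DNA, showed the opposite pattern. It measured 9.92, 12 and 14.6 CPM with complete smoke and 8.55, 11.4 and 15 CPM with filtered smoke, against 22.1, 23.1 and 21.4 CPM with clean air in A549, with no overlap between exposed and clean air libraries. The changes were -0.86 ± 0.22 (SE, adjusted p = 0.0167) and -0.93 ± 0.22 (SE, adjusted p = 0.00818). In BEAS-2B, FANCM measured 3.44, 5.89 and 14 CPM with complete smoke and 3.61, 7.06 and 8.69 CPM with filtered smoke, against 13.5, 25.6 and 27.9 CPM with clean air. Complete smoke replicate 3 reached the level of clean air replicate 1, while all filtered smoke libraries were lower than all clean air libraries. Its changes were -1.53 ± 0.53 (SE, adjusted p = 0.0432) and -1.79 ± 0.53 (SE, adjusted p = 0.0228), and the complete smoke value was -2.27 without complete smoke replicate 3. FANCF, a single-exon adaptor gene, fell in A549 to 9.36, 7.27 and 9.71 CPM with complete smoke and 7.09, 8.59 and 6.87 CPM with filtered smoke, against 14.1, 14.2 and 14.9 CPM with clean air. FANCB, on the X chromosome, fell there to 13.2, 9.24 and 13.1 and 10.7, 8.42 and 10.9 CPM, against 18.3, 17.2 and 17.5 CPM with clean air. Changes with complete and filtered smoke were -0.71 ± 0.17 (SE, adjusted p = 0.0141) and -0.93 ± 0.17 (SE, adjusted p = 0.00334) for FANCF. For FANCB they were -0.58 ± 0.18 (SE, adjusted p = 0.0346) and -0.82 ± 0.18 (SE, adjusted p = 0.00661). Neither passed in BEAS-2B, where FANCF had log2 fold changes of -0.25 and -0.31 and FANCB of -0.64 and -1.02.

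In BEAS-2B the largest rise of the core complex was that of FAAP20, which binds ubiquitin and stabilises FANCA. It measured 99.8, 69.5 and 29.1 CPM with complete smoke and 121, 69.6 and 41.5 CPM with filtered smoke, against 34.4, 13.5 and 12 CPM with clean air. Clean air replicate 1 was the highest clean air library and lay above complete smoke replicate 3. The changes were 1.73 ± 0.57 (SE, adjusted p = 0.0375) and 1.95 ± 0.58 (SE, adjusted p = 0.0223), and without clean air replicate 1 they were 2.38 and 2.6. FANCC fell to 24.2, 19.4 and 22.8 CPM with complete smoke and 24.4, 19 and 21.8 CPM with filtered smoke, against 36.6, 31 and 28.4 CPM with clean air. Log2 changes of these values were -0.53 ± 0.19 (SE, adjusted p = 0.0463) and -0.56 ± 0.19 (SE, adjusted p = 0.0348). The complete smoke call was lost without any 1 of the 6 libraries, and the filtered smoke call without any 1 of 5, all but filtered smoke replicate 1. With offsets for gene span the values were -0.07 and 0.03 and neither passed. FAAP100, the partner of FANCB and FANCL, rose with filtered smoke with a log2 change of 1.04 ± 0.30 (SE, adjusted p = 0.0218). In A549, FAAP20 rose with filtered smoke with a log2 change of 1.01 ± 0.30 (SE, adjusted p = 0.0199). FANCL, the catalytic subunit, and FAAP24, the DNA-binding partner of FANCM, passed in neither line, with log2 fold changes between 0.10 and 0.54 for FANCL and between 0.02 and 0.35 for FAAP24.

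**Figure D2:**
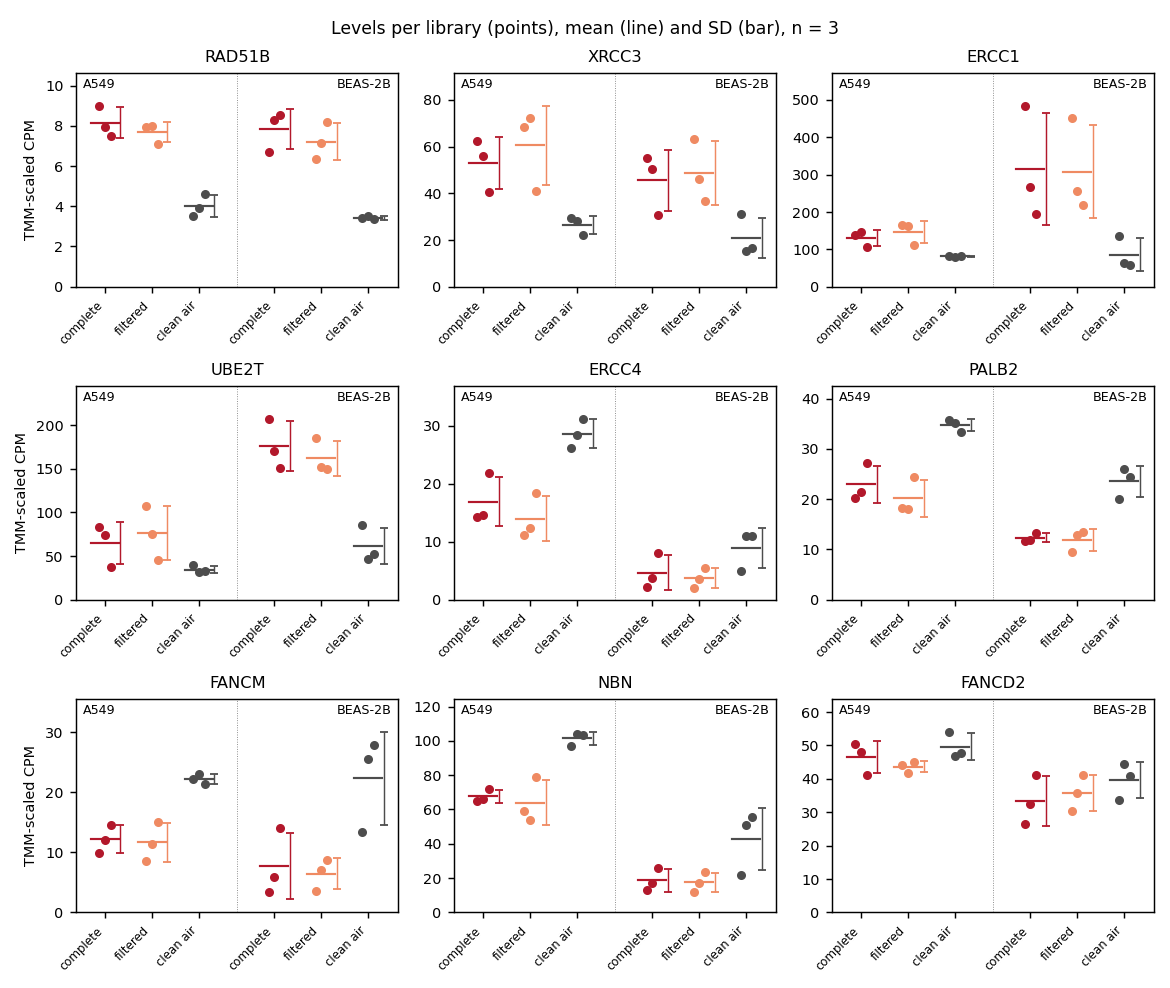
TMM-scaled CPM of 9 genes in every library (points), with the mean (line) and SD (bar) of 3 libraries per group, A549 left and BEAS-2B right of the dotted line. RAD51B lies between 6.33 and 9 CPM in all 12 exposed libraries and between 3.34 and 4.61 CPM in the 6 clean air libraries, whereas FANCD2 overlaps clean air in each exposed group except filtered smoke in A549.

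The substrates of the pathway passed in none of the 4 comparisons above. FANCD2, whose monoubiquitination is the central switch of crosslink repair, measured 50.3, 48.1 and 41.2 CPM with complete smoke and 44.3, 41.8 and 45 CPM with filtered smoke, against 54.2, 46.9 and 47.8 CPM with clean air in A549. In BEAS-2B it measured 26.4, 32.6 and 41.2 CPM with complete smoke and 30.4, 35.9 and 41.2 CPM with filtered smoke, against 33.7, 44.4 and 40.7 CPM with clean air. Exposed libraries overlapped clean air libraries in all but one of these pairs of groups, and the log2 fold changes lay between -0.25 and -0.09. Its partner FANCI had values of 0.32 and 0.31 in A549 and -0.29 and -0.27 in BEAS-2B. FANCI was above clean air in every exposed A549 library and was called there in 5 of 17 settings with each smoke, with log2 fold changes of up to 0.75 and 0.85. The replicate block was among them, with adjusted p-values of 0.0243 and 0.022. Reads shared between FANCD2 or BRCA1 and their pseudogenes map to more than one place and would be missing from these counts.

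The enzymes that add and remove the ubiquitin moved apart in BEAS-2B. UBE2T, the conjugating enzyme for FANCD2, reached 208, 170 and 151 CPM with complete smoke and 185, 152 and 149 CPM with filtered smoke, against 85.6, 46.3 and 52.6 CPM with clean air. All exposed libraries were above all clean air libraries, with changes of 1.52 ± 0.26 (SE, adjusted p = 0.00408) and 1.4 ± 0.26 (SE, adjusted p = 0.00519) that passed without any 1 library. USP1, the protease that removes the mark, fell to 53.7, 60.3 and 89.5 CPM with complete smoke and 37.9, 65.4 and 82.2 CPM with filtered smoke, against 97.1, 157 and 152 CPM with clean air. Its changes were -1.0 ± 0.33 (SE, adjusted p = 0.0364) and -1.13 ± 0.33 (SE, adjusted p = 0.0213). In A549, UBE2T rose with filtered smoke with a log2 change of 1.15 ± 0.34 (SE, adjusted p = 0.021), and with complete smoke its change was 0.92 ± 0.34 (SE, adjusted p = 0.060), or adjusted p = 0.00289 with the replicate block. USP1 had log2 fold changes of 0.14 and 0.0033 in A549. WDR48, the subunit that activates USP1, measured 39.4, 46.9 and 50.2 CPM with complete smoke and 35.2, 41.2 and 51.6 CPM with filtered smoke, against 51.4, 57 and 62.7 CPM with clean air in A549. BEAS-2B values were 14.9, 25.2 and 26.1 CPM and 14.4, 22.4 and 27.8 CPM with complete and filtered smoke, against 31.2, 32.8 and 37.6 CPM with clean air. It passed in no comparison without the block, and with the replicate block it passed in A549, at adjusted p = 0.0311 with complete and adjusted p = 0.00682 with filtered smoke.

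Among the nucleases, the partners of the ERCC1-XPF endonuclease, which makes an incision at the crosslink, moved in opposite directions in A549. ERCC1, the non-catalytic subunit (chr19:45407333-45478828, minus strand, GRCh38), measured 139, 145 and 106 CPM with complete smoke and 166, 162 and 111 CPM with filtered smoke, against 83.4, 79.9 and 81.9 CPM with clean air in A549. The changes were 0.67 ± 0.18 (SE, adjusted p = 0.023) and 0.84 ± 0.18 (SE, adjusted p = 0.00651), without overlap between groups. In BEAS-2B it reached 484, 266 and 195 CPM with complete smoke and 451, 256 and 218 CPM with filtered smoke, against 136, 62.6 and 57.1 CPM with clean air. Both exposed groups were above all clean air libraries, with changes of 1.89 ± 0.47 (SE, adjusted p = 0.0138) and 1.85 ± 0.46 (SE, adjusted p = 0.0129), the largest rise of the module with complete smoke. The ERCC1 locus overlaps FOSB and POLR1G on the other strand, and the counts used here take the gene's own strand.

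ERCC4, which encodes the catalytic subunit XPF (chr16:13920157-13952345, plus strand, GRCh38), fell in A549 to 14.2, 14.6 and 21.8 CPM with complete smoke and 11.2, 12.3 and 18.5 CPM with filtered smoke, against 26.2, 28.3 and 31.2 CPM with clean air. The changes were -0.76 ± 0.23 (SE, adjusted p = 0.0314) and -1.03 ± 0.23 (SE, adjusted p = 0.00706), and no exposed library reached the clean air range. In BEAS-2B it measured 2.15, 3.67 and 7.99 CPM with complete smoke and 2.08, 3.55 and 5.42 CPM with filtered smoke, against 4.87, 10.9 and 10.9 CPM with clean air. These ranges overlapped through clean air replicate 1, and the changes of -0.96 ± 0.52 (SE, adjusted p = 0.162) and -1.27 ± 0.53 (SE, adjusted p = 0.0701) did not pass. SLX4, the scaffold that holds the nucleases, fell in A549 to 9.14, 8.55 and 12.2 CPM with complete smoke and 7.31, 7.92 and 10.9 CPM with filtered smoke, against 20.8, 17.9 and 15.3 CPM with clean air. This gave log2 changes of -0.85 ± 0.21 (SE, adjusted p = 0.0165) and -1.05 ± 0.21 (SE, adjusted p = 0.00504). FAN1, a nuclease recruited by ubiquitinated FANCD2, fell in BEAS-2B to 6.1, 7.9 and 7.2 and 6.5, 6.95 and 9.33 CPM, against 13.5, 14.2 and 13.5 CPM with clean air. Its log2 changes were -0.96 ± 0.21 (SE, adjusted p = 0.00856) and -0.86 ± 0.21 (SE, adjusted p = 0.0113). MUS81, which cuts branched structures, rose there to 60.2, 49.6 and 30.7 and 70.9, 49.3 and 38.6 CPM, against 31.3, 19.2 and 20.2 CPM with clean air. The log2 changes were 0.99 ± 0.32 (SE, adjusted p = 0.0355) and 1.17 ± 0.32 (SE, adjusted p = 0.0183). Complete smoke replicate 3 overlapped clean air replicate 1. In A549 MUS81 rose with filtered smoke, with a log2 change of 0.69 ± 0.24 (SE, adjusted p = 0.0366), although its groups overlapped. Its partner EME1 passed in no comparison. At EME1, 41.9% or more of the reads lay on the opposite strand in every library, where LRRC59 overlaps it.

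All 5 BRCA mediators had negative log2 fold changes in all 4 comparisons, and none rose. With filtered smoke 4 of 5 fell in A549 and 5 of 5 in BEAS-2B, and with complete smoke 2 fell in each line. Of all genes tested, 23.5% fell in A549 and 24.9% in BEAS-2B with filtered smoke, and 16.9% and 19.5% with complete smoke. PALB2, which bridges BRCA1 and BRCA2, was the only one of the 5 that passed in all 4 comparisons. It measured 20.3, 21.3 and 27.2 CPM with complete smoke and 18.2, 18 and 24.4 CPM with filtered smoke, against 35.8, 35.1 and 33.4 CPM with clean air in A549. Levels in BEAS-2B were 11.7, 11.9 and 13.3 CPM and 9.4, 12.8 and 13.5 CPM with complete and filtered smoke, against 20.1, 26 and 24.5 CPM with clean air. Exposed and clean air libraries did not overlap in either line, and the changes were -0.60 ± 0.17 (SE, adjusted p = 0.0266) and -0.78 ± 0.17 (SE, adjusted p = 0.00667) in A549 and -0.94 ± 0.21 (SE, adjusted p = 0.00899) and -0.98 ± 0.21 (SE, adjusted p = 0.00721) in BEAS-2B. The BEAS-2B calls of PALB2 and its A549 call with filtered smoke were kept without any 1 library. Its A549 call with complete smoke was lost without any 1 of 5 of the 6 libraries, all but complete smoke replicate 3. In BEAS-2B the filtered smoke calls of BRCA1, BRCA2, BARD1 and BRIP1 were each lost without any 1 of 4 of the 6 libraries. These were clean air replicates 2 and 3 and filtered smoke replicates 1 and 2.

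BRCA2, a recombination mediator that binds single-stranded DNA, fell in A549 to 14.8, 11.8 and 17.8 CPM with complete smoke and 9.94, 8.75 and 19.1 CPM with filtered smoke, against 30.3, 30.1 and 28.5 CPM with clean air. Log2 changes of these values were -1.0 ± 0.27 (SE, adjusted p = 0.0231) and -1.23 ± 0.28 (SE, adjusted p = 0.00724). In BEAS-2B it measured 5.9, 6.69 and 29.6 CPM with complete smoke and 4.83, 5.58 and 9.89 CPM with filtered smoke, against 15.6, 37.8 and 41 CPM with clean air. Complete smoke replicate 3 lay within the clean air range, so that only the filtered smoke change of -2.21 ± 0.65 (SE, adjusted p = 0.0224) passed, beside -1.16 ± 0.63 (SE, adjusted p = 0.159) with complete smoke. BRCA1, the ligase that starts recombination, fell in BEAS-2B to 15, 22.6 and 43 CPM with complete smoke and 15.4, 22.2 and 32.2 CPM with filtered smoke, against 46.9, 69.5 and 77 CPM with clean air. Its changes there were -1.26 ± 0.41 (SE, adjusted p = 0.0342) and -1.47 ± 0.41 (SE, adjusted p = 0.0184), and in A549 it fell with filtered smoke with a log2 change of -0.82 ± 0.27 (SE, adjusted p = 0.0306). BRIP1, a helicase that binds BRCA1, fell with filtered smoke with a log2 change of -0.69 ± 0.22 (SE, adjusted p = 0.025) in A549 and -1.53 ± 0.50 (SE, adjusted p = 0.0311) in BEAS-2B. BARD1, the obligate partner of BRCA1, fell in BEAS-2B with filtered smoke with a log2 change of -1.28 ± 0.34 (SE, adjusted p = 0.0155).

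End resection was represented by the MRE11-RAD50-NBN complex and by RBBP8, which encodes CtIP. NBN, the subunit that recruits ATM, measured 65.1, 66.1 and 71.9 CPM with complete smoke and 59.3, 53.9 and 79 CPM with filtered smoke, against 97.1, 104 and 103 CPM with clean air in A549. The same gene in BEAS-2B measured 13, 17.2 and 26.1 CPM and 12.1, 17.3 and 23.3 CPM with complete and filtered smoke, against 22.1, 51.1 and 55.5 CPM with clean air. The groups did not overlap in A549, while in BEAS-2B clean air replicate 1 lay within the exposed range. The changes were -0.59 ± 0.16 (SE, adjusted p = 0.0216) and -0.67 ± 0.16 (SE, adjusted p = 0.00893) in A549 and -1.19 ± 0.40 (SE, adjusted p = 0.0391) and -1.29 ± 0.40 (SE, adjusted p = 0.027) in BEAS-2B. RBBP8 fell in BEAS-2B to 34.5, 38.1 and 41 CPM with complete smoke and 32.7, 37.4 and 46.2 CPM with filtered smoke, against 62.8, 66.4 and 67 CPM with clean air. This gave log2 changes of -0.79 ± 0.18 (SE, adjusted p = 0.0101) and -0.75 ± 0.18 (SE, adjusted p = 0.0105), and both calls were kept without any 1 library. In A549 its log2 fold changes were -0.13 and -0.06. The nuclease MRE11 fell in BEAS-2B with filtered smoke with a log2 change of -0.96 ± 0.29 (SE, adjusted p = 0.0247), and RAD50, the ATPase of the complex, passed in none.

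The XRCC and RAD paralogs, which assist homologous recombination, did not move as a block. RAD51B, on chromosome 14 (chr14:67819779-68730218, plus strand, GRCh38), is the longest gene of the module by genomic span, at 910 kb. It measured 9.0, 7.96 and 7.5 CPM with complete smoke and 7.97, 7.97 and 7.11 CPM with filtered smoke, against 3.52, 3.91 and 4.61 CPM with clean air in A549. In BEAS-2B it measured 6.71, 8.29 and 8.55 CPM and 6.33, 7.14 and 8.2 CPM, against 3.41, 3.53 and 3.34 CPM with clean air. Every exposed library was above every clean air library in both lines, by log2 fold changes of 1.02 ± 0.18 (SE, adjusted p = 0.00444) and 0.94 ± 0.18 (SE, adjusted p = 0.00386) in A549 and 1.19 ± 0.20 (SE, adjusted p = 0.00353) and 1.08 ± 0.20 (SE, adjusted p = 0.00495) in BEAS-2B. It was the single gene of the module that kept its call in all 4 smoke comparisons without any 1 library.

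XRCC3, which pairs with RAD51C (chr14:103697609-103715504, minus strand, GRCh38), measured 62.3, 56 and 40.6 CPM with complete smoke and 68.3, 72.3 and 41.1 CPM with filtered smoke, against 29.2, 28.1 and 22 CPM with clean air in A549. In BEAS-2B it had 55.3, 50.5 and 30.6 CPM and 63.5, 46.3 and 36.6 CPM, against 30.9, 15.4 and 16.4 CPM with clean air, where clean air replicate 1 reached complete smoke replicate 3. The changes were 1.0 ± 0.24 (SE, adjusted p = 0.0153) and 1.19 ± 0.24 (SE, adjusted p = 0.00497) in A549 and 1.12 ± 0.34 (SE, adjusted p = 0.029) and 1.22 ± 0.34 (SE, adjusted p = 0.0193) in BEAS-2B. RAD51C, a member of both paralog complexes, rose with a log2 change of 0.51 ± 0.18 (SE, adjusted p = 0.0483) with complete smoke in BEAS-2B, where the value was below 0, at -0.16, under scaling by library size alone. RAD51D fell in A549 to 17.9, 15 and 19.2 CPM with complete smoke and 17, 16.6 and 19.1 CPM with filtered smoke, against 27.3, 28.2 and 28.9 CPM with clean air. The log2 changes were -0.70 ± 0.14 (SE, adjusted p = 0.00893) and -0.68 ± 0.14 (SE, adjusted p = 0.00568). With offsets for GC content and exonic length neither passed: the values were -0.11 (adjusted p = 0.539) with complete and 0.04 (adjusted p = 0.839) with filtered smoke, the sign of the filtered smoke value turning. In BEAS-2B its log2 fold changes were -0.02 and 0.07, and neither passed. XRCC2, its partner, fell in BEAS-2B to 7.02, 5.8 and 12.7 and 5.86, 6.08 and 8.01 CPM, against 11.2, 20.7 and 23 CPM with clean air. Log2 changes of these values were -1.11 ± 0.36 (SE, adjusted p = 0.0344) and -1.46 ± 0.36 (SE, adjusted p = 0.0122), with complete smoke replicate 3 above clean air replicate 1. The translocases RAD54L and RAD54B, which open the target duplex for strand invasion, passed in no smoke comparison.

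Dissolution of the joint molecules is carried out by the BLM helicase with RMI1 and RMI2. BLM fell in BEAS-2B to 14.7, 16.7 and 18.3 CPM with complete smoke and 13, 12.7 and 16.5 CPM with filtered smoke, against 26.5, 28.7 and 29.8 CPM with clean air. This gave log2 changes of -0.78 ± 0.19 (SE, adjusted p = 0.0121) and -1.01 ± 0.19 (SE, adjusted p = 0.00496). RMI1 fell there to 8.08, 12 and 16.6 and 5.17, 11.4 and 14.3 CPM, against 18.3, 31.6 and 31 CPM with clean air. The log2 changes were -1.14 ± 0.40 (SE, adjusted p = 0.0474) and -1.39 ± 0.41 (SE, adjusted p = 0.022). In A549 RMI1 fell too, with a log2 change of -0.60 ± 0.16 (SE, adjusted p = 0.0127) with filtered smoke. All exposed libraries were below all clean air libraries for both genes in BEAS-2B. RMI2 rose in A549 with complete smoke with a log2 change of 0.48 ± 0.13 (SE, adjusted p = 0.023), at 36.5, 32 and 30.5 CPM against 23.7, 23.9 and 23.3 CPM with clean air.

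Of the checkpoint genes in A549 with filtered smoke, both kinases fell and the targeting subunit of ATR rose. ATR, the kinase activated by stalled forks, measured 42.8, 42.7 and 52.8 CPM with complete smoke and 32.2, 36.9 and 61.1 CPM with filtered smoke, against 78.1, 86.2 and 84.7 CPM with clean air in A549. Log2 changes of these values were -0.85 ± 0.22 (SE, adjusted p = 0.0203) and -0.93 ± 0.22 (SE, adjusted p = 0.00933). ATR passed there in 9 of 17 other settings with complete smoke, with values from -0.97 to -0.18. With filtered smoke it passed in 15 of 17, with values from -1.26 to -0.14. BEAS-2B libraries gave 12.2, 15.8 and 30.4 CPM and 11.2, 14.3 and 19.5 CPM with complete and filtered smoke, against 15.3, 32.5 and 35 CPM with clean air. The groups overlapped through clean air replicate 1. Those changes, -0.51 ± 0.41 (SE, adjusted p = 0.33) and -0.88 ± 0.41 (SE, adjusted p = 0.10), did not pass. ATRIP, which brings ATR to single-stranded DNA, rose in A549 to 19.1, 21.8 and 14.2 CPM with complete smoke and 20, 21.5 and 16.8 CPM with filtered smoke, against 10.1, 12 and 8.12 CPM with clean air. This gave log2 changes of 0.87 ± 0.21 (SE, adjusted p = 0.0149) and 0.95 ± 0.21 (SE, adjusted p = 0.00661). In BEAS-2B ATRIP rose with a log2 change of 0.72 ± 0.24 (SE, adjusted p = 0.0336) with filtered smoke. ATRIP overlaps TREX1 on the same strand, and TREX1 had 0 counts in all libraries. Reads that fall in both genes are ambiguous and counted for neither, so this 0 does not show that TREX1 is silent. ATM, the kinase activated by double-strand breaks, had the deepest fall of the module, to 4.56, 8.44 and 14.8 CPM with filtered smoke, against 23.5, 54.8 and 63.8 CPM with clean air in BEAS-2B, with a log2 change of -2.35 ± 0.69 (SE, adjusted p = 0.0218). In A549 it fell with filtered smoke to 22.1, 21.4 and 55.7 CPM, against 65.9, 74.8 and 78.7 CPM with clean air, with a log2 change of -1.14 ± 0.39 (SE, adjusted p = 0.0342), and it was -1.75 without filtered smoke replicate 3. ATM passed there in 9 of 17 other settings, with values from -1.75 to -0.17. The A549 call was lost without any 1 library except filtered smoke replicate 3. In BEAS-2B with filtered smoke ATM passed in 13 of 18 other settings, with values from -3.04 to -1.03.

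Because partners of one complex moved apart, the ratio of their CPM within each library was computed for 10 pairs that were chosen after the values had been seen. It is a ratio of scaled counts, so that only its change between groups, not its size, can be read. ERCC1 over ERCC4 was 9.72, 9.95 and 4.85 with complete smoke and 14.8, 13.2 and 6.03 with filtered smoke, against 3.18, 2.82 and 2.63 with clean air in A549. In BEAS-2B it was 225, 72.6 and 24.4 and 217, 72.1 and 40.2 with complete and filtered smoke, against 27.9, 5.75 and 5.22 with clean air, where replicate 1 overlapped complete smoke replicate 3. The mean ratio was 2.84 and 3.94 times that of clean air with complete and filtered smoke in A549. ATRIP over ATR was 0.445, 0.51 and 0.269 and 0.621, 0.582 and 0.275 with complete and filtered smoke, against 0.129, 0.139 and 0.0959 with clean air in A549. In BEAS-2B both exposed groups overlapped the clean air group in this ratio. RMI2 over RMI1 was also higher in all exposed A549 libraries, at 1.78, 1.51 and 1.11 and 1.56, 1.53 and 1.29, against 0.731, 0.757 and 0.833 with clean air. FANCD2 over FANCI and WDR48 over USP1 moved the other way in A549, with exposed means of 0.710 to 0.753 times the clean air mean, and were not lower in BEAS-2B. In the higher pairs above, the first gene's longest transcript had more GC: 56.11% against 39.94% for ERCC1 and ERCC4. The values were 58.67% against 40.02% for ATRIP and ATR, and 48.69% against 36.02% for RMI2 and RMI1. FANCD2 and FANCI were close, at 43.95% and 43.39%. UBE2T over USP1 and BARD1 over BRCA1, at 40.09% over 40.92% and 38.04% over 41.9%, were higher with filtered smoke in both lines. The part of GC content in these ratios was not tested.

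**Figure D3:**
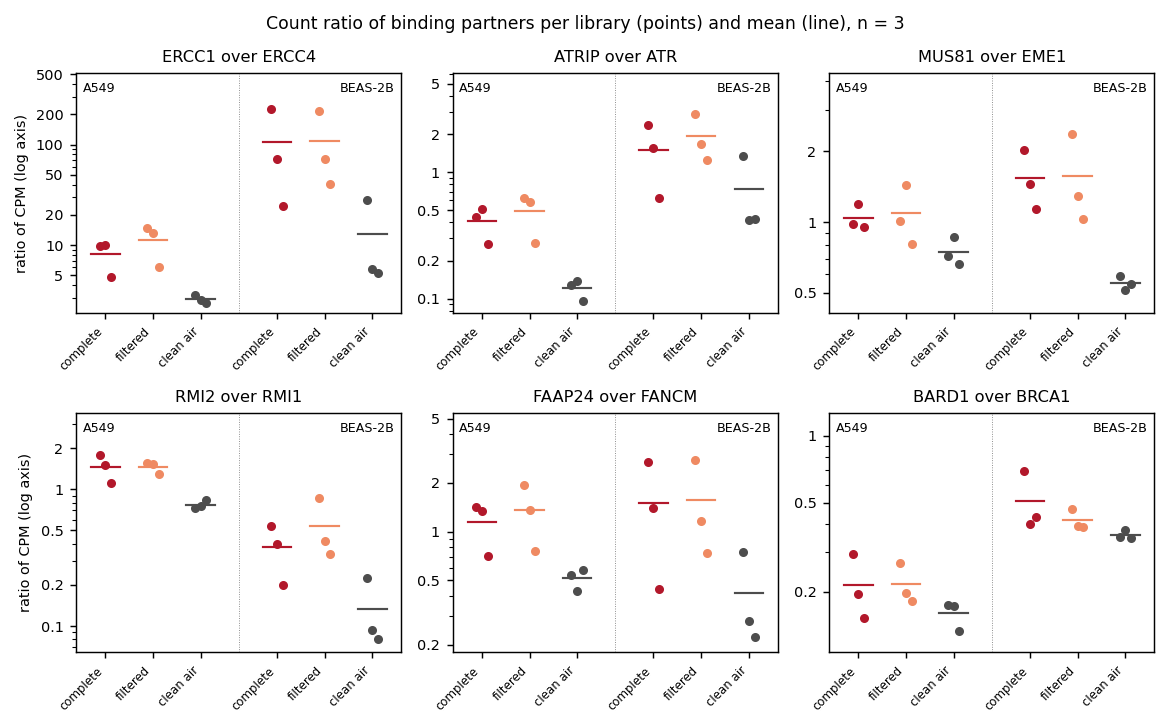
Ratio of TMM-scaled CPM between partner genes in each library (points, log axis) with the mean of 3 libraries (line), for complete smoke, filtered smoke and clean air in A549 (left of the dotted line) and BEAS-2B (right). ERCC1 over ERCC4 is 4.85 to 14.8 in exposed and 2.63 to 3.18 in clean air A549 libraries.

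No gene of the module passed between complete and filtered smoke. Complete against filtered smoke gave 0 calls among the 44 genes in A549 and 0 in BEAS-2B with edgeR, beside 0% of all genes tested in both lines. It gave 0 with DESeq2. At an unadjusted p under 0.05 it gave 0 of the 44 in either line, beside 236 of 15244 genes in A549 and 222 of 16356 in BEAS-2B. In A549 the differences, complete minus filtered, lay between -0.42 for FAAP20 and 0.34 for RAD50, and in BEAS-2B between -0.24 for FAAP100 and 1.05 for BRCA2. Standard errors of these differences were as large as 0.66, so a p above the threshold does not show that both exposures act alike.

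Differences between the lines in their response were tested as an interaction. None of the 44 genes passed with complete smoke, BEAS-2B minus A549 (1.74% of all genes passed), and none with filtered smoke (0.825%). At an unadjusted p under 0.05 there were 9 and 8 of the 44, beside 3070 and 2449 of all 17703 genes tested. Nothing is read from these counts as particular to the module. DESeq2 called 3 and 2. USP1 differed by -1.17 ± 0.36 (SE, adjusted p = 0.116) with complete smoke and BLM by -0.85 ± 0.23 (SE, adjusted p = 0.0983) with filtered smoke. RAD51D differed the other way, with log2 changes of 0.67 ± 0.26 (SE, adjusted p = 0.195) and 0.76 ± 0.26 (SE, adjusted p = 0.182). Without the BEAS-2B libraries that stood apart, 2 genes passed as higher and 13 as lower with complete smoke (21.5% of all genes passed). With filtered smoke 1 and 4 passed (5.16%). Those libraries were singled out from these same data. Genes of the module also passed with all libraries under the replicate block, so the count of 0 depended on the libraries kept and on the fit.

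With clean air alone, 13 genes of the module were higher and 6 lower in BEAS-2B than in A549, beside 55.4% of all genes tested, 27.3% higher and 28% lower, and 14 of these 19 calls were kept without any 1 library. Line cannot be told apart from growth medium, seeding number, library preparation or sequencing run here. FANCE was the most different upward, with a log2 change of 2.57 ± 0.32 (SE, adjusted p = 3.79e-06), followed by RAD54L, with a log2 change of 2.19 ± 0.18 (SE, adjusted p = 2.75e-08), and USP1, with a log2 change of 1.69 ± 0.26 (SE, adjusted p = 3.82e-05). RMI2 was the most different downward, with a log2 change of -2.41 ± 0.19 (SE, adjusted p = 1.73e-08), followed by FANCF, with a log2 change of -1.27 ± 0.23 (SE, adjusted p = 0.000162), and ERCC4, with a log2 change of -1.17 ± 0.41 (SE, adjusted p = 0.0235). Per kilobase of exons, RMI2 stood at 1.03 ± 0.217 (SD, n = 3) CPM in BEAS-2B and 5.51 ± 0.167 (SD, n = 3) CPM in A549, and FANCE at 6.87 ± 1.12 (SD, n = 3) in BEAS-2B and 1.15 ± 0.184 (SD, n = 3) in A549. The highest levels per kilobase with clean air were those of UBE2T and USP1 in BEAS-2B, at 43.8 ± 12.5 (SD, n = 3) and 38 ± 10.9 (SD, n = 3) CPM, and of FANCI and UBE2T in A549, at 18.2 ± 1.36 (SD, n = 3) and 17.6 ± 2.29 (SD, n = 3) CPM, and the ranges of each such pair overlapped. The lowest were those of RAD50 and RAD51B in BEAS-2B, at 0.445 ± 0.221 (SD, n = 3) and 0.546 ± 0.0354 (SD, n = 3) CPM, and of RAD51B in A549, at 0.454 ± 0.0554 (SD, n = 3) CPM. In each line, 39 of 43 pairs of neighbours in the order of levels had overlapping ranges.

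**Figure D4:**
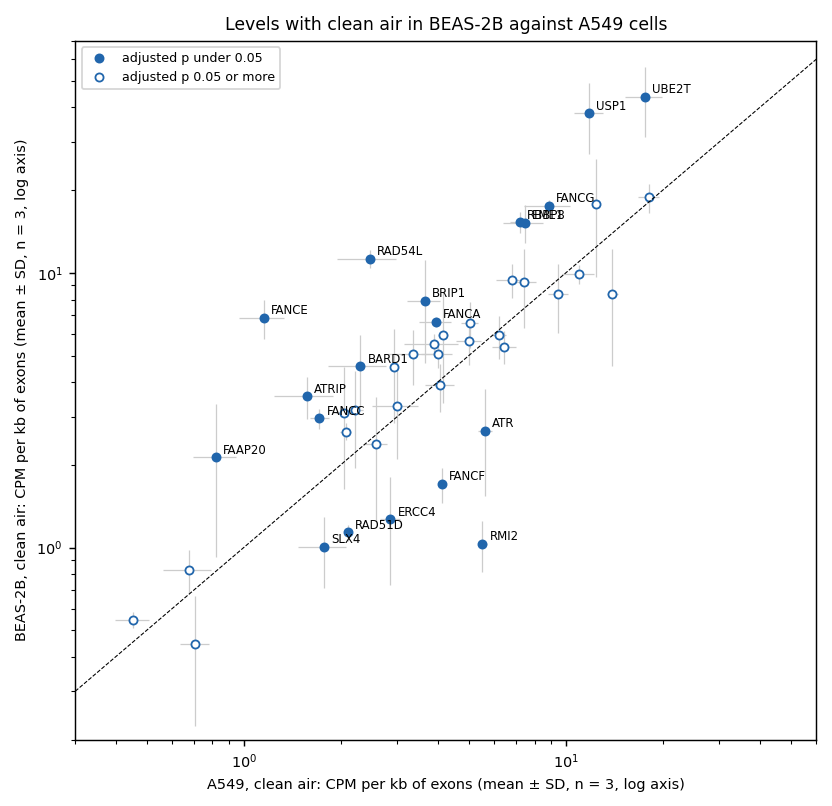
Level of each of the 44 genes with clean air, in CPM per kilobase of exons on log axes, in BEAS-2B (vertical) against A549 (horizontal), as mean and SD of 3 libraries; filled points differ at an adjusted p under 0.05 and the dashed line marks equal levels. FANCE and RAD54L lie above the line and RMI2 below it.

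Rises and falls in the module ran with base composition, and less closely with exonic length. Over the 44 genes, Pearson's r between the log2 fold change and the GC content of the longest transcript was 0.58 with complete and 0.63 with filtered smoke in A549, and 0.63 and 0.71 in BEAS-2B, while it was 0.30, 0.35, 0.26 and 0.37 over all protein-coding genes tested. Genes within a comparison share libraries and depth, so these values are descriptions. With genomic span on a log scale r was weaker in the module, at -0.20 to -0.29, than over all protein-coding genes, at -0.37 to -0.49. With exonic length r in the module was -0.44 with complete and -0.43 with filtered smoke in A549, and -0.33 and -0.36 in BEAS-2B. Over all protein-coding genes it was -0.50, -0.52, -0.46 and -0.49, larger in size than with GC content. Split at the module's median GC of 42.5%, the 22 genes of lower GC held 1 rise and 13 falls with filtered smoke in BEAS-2B, and the 22 of higher GC held 9 rises and 3 falls. In A549 the genes of lower GC held 1 rise and 10 falls and those of higher GC 9 rises and 4 falls. Among all protein-coding genes below that GC content, 12.1% rose and 41.7% fell with filtered smoke in BEAS-2B, and above it 28.7% rose and 20.5% fell. In A549 the same shares were 10.7% and 36% below it and 29% and 21% above it.

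Several genes went against that order. UBE2T was furthest below the median among those that rose, and SLX4 furthest above it among those that fell. UBE2T has a transcript GC content of 40.1% and rose, and SLX4 has 57.6% and fell in A549. Above the median, FANCF at 45.4% and RAD51D at 47.1% fell in A549, and FANCC at 50.6% and FAN1 at 46.5% fell in BEAS-2B. PALB2 at 42.8% fell in both lines. RAD51C, at 42.2%, rose with complete smoke in BEAS-2B. RAD51B, which rose throughout, lies close to the median at 43.5%. With offsets fitted per library for GC content and exonic length, 15 genes passed with complete and 17 with filtered smoke in A549, beside 29.7% and 40.7% of all genes. In BEAS-2B 23 and 24 passed, beside 46.4% and 49% of all genes. With offsets for gene span, RAD51B had log2 fold changes of 1.31 and 1.26 in A549 and 1.42 and 1.41 in BEAS-2B, and PALB2 of -0.55 and -0.69 in A549 and -0.78 and -0.82 in BEAS-2B, and both passed in all 4. NBN passed in none of the 4 under the span offsets.

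**Figure D5:**
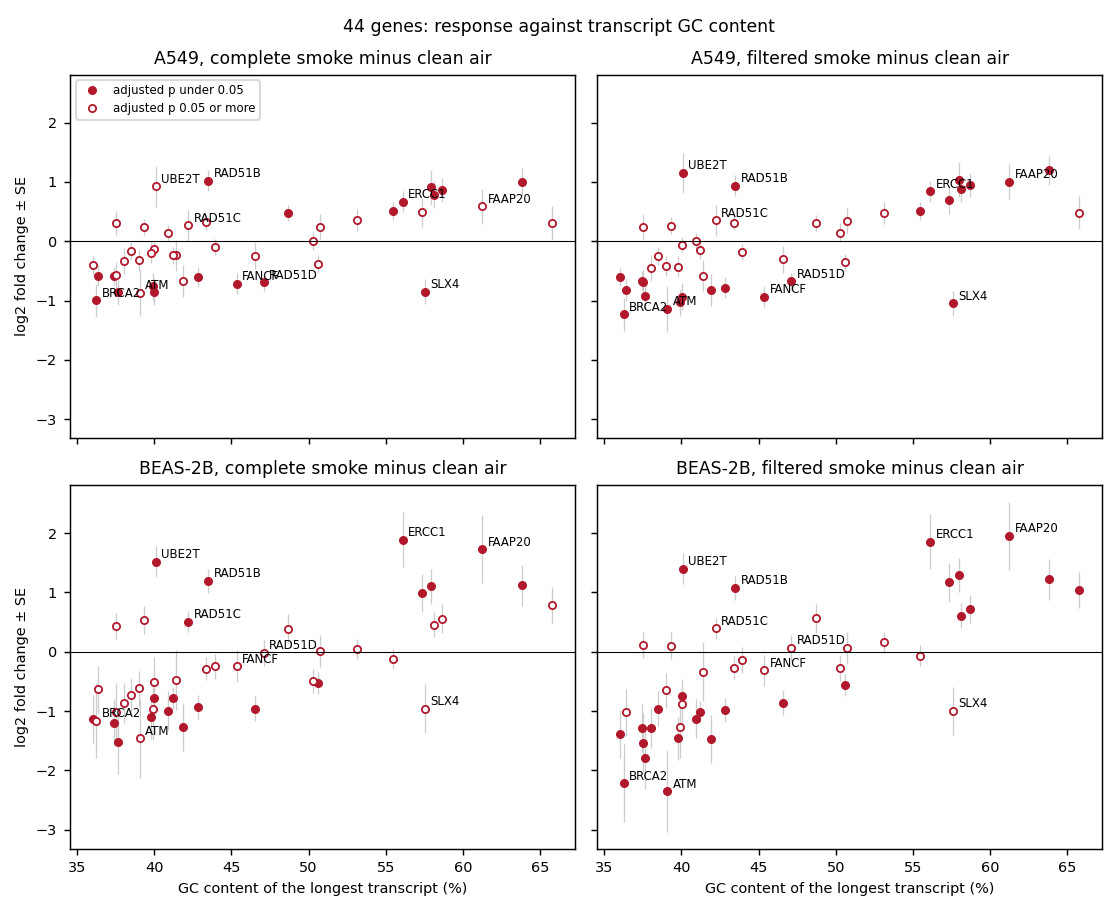
Log2 fold change with its standard error against the GC content of the longest transcript for each of the 44 genes, in 4 panels for complete and filtered smoke minus clean air in A549 and BEAS-2B; filled points have an adjusted p under 0.05. Most falling genes lie below a GC content of about 42.5%. Exceptions to the order include SLX4 at 57.6%, below 0, and UBE2T at 40.1%, above 0.

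Other genes of the same pathways, a list of 49 outside the module, also held rises and falls. In A549, 7 rose and 10 fell of 47 tested with complete smoke and 9 rose and 13 fell with filtered smoke, where 32.5% and 46.7% of all genes passed. In BEAS-2B, 9 rose and 17 fell of 48 tested with complete smoke and 10 rose and 18 fell with filtered smoke, where 41% and 48.6% of all genes passed. MAD2L2, which encodes a subunit shared by DNA polymerase zeta and shieldin, rose with log2 changes of 1.35 ± 0.25 (SE, adjusted p = 0.00621) and 1.58 ± 0.25 (SE, adjusted p = 0.00214) in A549. The BEAS-2B changes were 2.06 ± 0.42 (SE, adjusted p = 0.00732) and 2.1 ± 0.42 (SE, adjusted p = 0.00647) in BEAS-2B. REV3L, which encodes the catalytic subunit of the same polymerase, fell with log2 changes of -1.78 ± 0.33 (SE, adjusted p = 0.00604) and -2.04 ± 0.34 (SE, adjusted p = 0.00235) in A549. The BEAS-2B changes were -1.73 ± 0.58 (SE, adjusted p = 0.0386) and -2.48 ± 0.59 (SE, adjusted p = 0.0113) in BEAS-2B. CENPX, a partner of FANCM, rose with log2 changes of 1.07 ± 0.30 (SE, adjusted p = 0.026) and 1.36 ± 0.30 (SE, adjusted p = 0.00705) in A549. The BEAS-2B changes were 1.88 ± 0.53 (SE, adjusted p = 0.0214) and 1.81 ± 0.52 (SE, adjusted p = 0.0211) in BEAS-2B. SWI5, a recombination cofactor, rose with a log2 change of 1.27 ± 0.27 (SE, adjusted p = 0.0056) with filtered smoke in A549 and 1.6 ± 0.37 (SE, adjusted p = 0.0104) in BEAS-2B. POLQ, the polymerase of end joining by microhomology, fell with log2 changes of -1.15 ± 0.25 (SE, adjusted p = 0.0113) and -1.29 ± 0.26 (SE, adjusted p = 0.00458) in A549. Of 16 cell cycle genes, 2 rose and 2 fell with complete smoke and 3 rose and 2 fell with filtered smoke in A549, and 2 rose and 3 fell and 1 rose and 4 fell in BEAS-2B. These counts, 4 or 5 of 16, lay below the same shares of all genes in the fits without the replicate block. With the block in A549 the order turned. There 8 rose and 2 fell with complete smoke, and 12 rose and 2 fell with filtered smoke. These 10 and 14 of 16 lay above the 54.6% and 61.7% of all genes that passed with the block.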

How the data were processed

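RNA from 18 libraries of A549 and BEAS-2B cells was measured as read counts per gene. The deposited counts come from the authors, whose tool was STAR (2.7.10b) and whose genome build was GRCh38, both per the submitters' processing notes. Each file has a column of unstranded and 2 of stranded counts. The column of the gene's own strand was used. The labels name a kit that is usually unstranded, but counts on this strand were 11.7 to 17.1 times those on the other. Reads that name no gene (outside genes 0.952% to 8.50%, multiply mapped 7.69% to 31.7% of reads) were left out.

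Counts were filtered with filterByExpr and scaled by TMM, and each line's 9 libraries were fitted with edgeR 4.0.16 (quasi-likelihood, robust) in R 4.3.3 with limma 3.58.1. All 18 were fitted jointly for differences between lines. P-values were adjusted over all genes tested (15244 in A549, 16356 in BEAS-2B, 17703 jointly), and standard errors were taken as the absolute log2 fold change over the square root of F. DESeq2 1.42.0 was an alternative. Others were scaling, filters, strand, offsets for GC content and exonic length or for gene span, leaving out libraries, and the replicate number as a block. The number pairs the A549 libraries, from the data: the deviations of all 9 same-numbered pairs correlated at 0.22 to 0.80. The fits were tested on simulated counts.

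Per-library values were given for genes passing in both smoke comparisons of a line, for the 4 highest and 4 lowest per comparison, and for FANCD2, FANCA, ERCC1, ERCC4, ATR and WDR48. The members, the lists and this rule were chosen with earlier results of these data known, and the partner ratios, promoter strings and split by GC content after seeing the values. The precision of every count is limited to counting error and the spread among 3 libraries. One gene of the list of other pathway genes is not reported here. Promoters came from RefSeq. Figures were drawn with matplotlib 3.10.9.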

Additional observations from a re-analysis of the deposited data

Results flagged for a closer look

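Counts on the strand opposite MUS81, which no comparison used, were higher in A549 with complete smoke than with clean air. They averaged 1.85 CPM with complete smoke (1.64 to 2.19 over 3 libraries) and 0.877 CPM with clean air, where the highest library had 1.33 CPM. The level is low, no test was run, and it was singled out by a rule of at least 1 CPM, at least a 2-fold higher mean and no overlap. CFL1 and EFEMP2 overlap MUS81 on that strand, and whether these reads came from them was not tested.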

How the results depend on the processing

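Counts below are of the 44 genes that passed. Shares of all genes are not given beside them, so they show only how the module's calls moved with the fit. With the replicate block, whose numbers pair the libraries in A549, 29 passed with complete smoke in A549. In BEAS-2B 8 of 9 same-numbered pairs correlated over 0.1 and 1 at -0.134. Their median r was 0.58, beside 0.36 in A549, and different numbers had medians of -0.28 and -0.24. Because of the 1 pair, the BEAS-2B numbers were not taken as a pairing, but a pairing there is not excluded. In BEAS-2B 35 passed with complete smoke under the block. Under it 13 and 12 passed in the line differences with complete and filtered smoke, and 29 between the lines with clean air. The block with offsets for gene span gave 31, 15, 15 and 36 in the same order. With all 18 libraries in one fit, 7 passed with complete and 12 with filtered smoke in A549. Without BEAS-2B clean air 1 and complete 3, 32 passed with complete smoke in BEAS-2B, and 15 and 5 in the line differences. The line differences with complete and filtered smoke gave 3 and 2 with DESeq2's Wald test, 7 and 3 by library size alone, and 1 and 1 with offsets for GC content and exonic length, which gave 29 between the lines. With no low-count filter the complete smoke line difference gave 2. Leaving out each replicate in turn gave 2 to 25 and 14 to 33 with complete and filtered smoke in A549, 5 to 29 and 8 to 31 in BEAS-2B, 0 to 1 and 0 in the line differences, and 15 to 18 between the lines. A sign was reversed 5 times: RAD51D in A549 with filtered smoke, at 0.0357 with GC and length offsets; RAD51C at -0.1613 with complete and FANCG at -0.0764 with filtered smoke in BEAS-2B by library size alone; and FANCC in BEAS-2B with filtered smoke, at 0.0308 with span offsets and 0.0745 with the block added. Of other single-gene values 1084 kept direction and side of the threshold, and 122 kept direction and lost the call. With a replicate left out 389 kept both and 247 lost the call. The causes were not tested.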
